A study of Mus musculus with 12 samples.

Results

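The proteasome is the protease complex that degrades ubiquitin-tagged proteins, and the genes described here encode its subunits, activators and dedicated assembly factors in mouse. They were taken as every gene whose symbol is Psm, a letter from a to g, a number and at most one further letter, with a matching Ensembl identifier and without pseudogenes. The rule found 49 of the 41388 genes in the files, and 48 of the 49 passed the filter on low counts. Psmb8, Psmb9, Psmb10, Psme1 and Psme2 were set against the other 44. Expression was measured by RNA-seq in 12 libraries of bone marrow cells from C57BL/6 mice, in 4 groups of 3. KO_OC came from LysM Cre positive cells, called KO after their label, given 2% M-CSF and 50 ng/ml RANKL for 2 days. Flox_OC came from flox cells given the same. KO_BMM and flox_BMM came from KO and flox cells given 2% M-CSF alone for 2 days. All cells had first been cultured for 5 days and replated. M-CSF maintains macrophages (BMM), and RANKL drives their conversion to osteoclasts (OC). LysM Cre is expressed from the lysozyme gene of myeloid cells, so that cells of other lineages in the same dish would keep Asxl2, which encodes a chromatin-associated Polycomb group protein. No group with Cre and without the floxed allele is among these libraries, so effects of Cre and of Asxl2 loss cannot be told apart. Separate mice are not named for the libraries of a group, so each p-value reflects how far these libraries spread and no more, and that spread may be technical.

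The 20S core particle is a barrel of α rings, which gate the entry, around β rings that hold the proteolytic sites. In the constitutive core these sites belong to Psmb5 (chymotrypsin-like), Psmb6 (caspase-like) and Psmb7 (trypsin-like). In cells that meet interferon-γ, and in many immune cells at rest, newly built cores take up Psmb8 in place of Psmb5, Psmb9 in place of Psmb6 and Psmb10 in place of Psmb7, which gives the immunoproteasome and changes the peptides made for MHC class I. The 19S particle caps the core, with Psmc ATPases that unfold substrates and Psmd subunits that bind ubiquitin chains and remove them. Other caps are PA28αβ (Psme1 and Psme2, also induced by interferon-γ), the nuclear PA28γ (Psme3) and PA200 (Psme4). The transcription factor Nfe2l1 is known to raise proteasome genes together when proteasome activity is short, through antioxidant response elements.

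Libraries held 18489873 to 21667237 counts. Asxl2 stood at 12.7 to 15.1 CPM (reads counted for the gene, relative to the library's total, scaled between libraries with TMM factors) in KO_OC, against 71.0 to 75.6 CPM in flox_OC, and at 14.9 to 15.4 CPM in KO_BMM, against 89.7 to 95.6 CPM in flox_BMM. It was thus lower in every KO library than in any flox library. Of 10 osteoclast markers, 7 were called higher with RANKL in each genotype, Itgb3 was called lower, and Calcr and Oscar, which mark mature osteoclasts, were near 0 in all groups. The summed osteoclast markers came to 379 to 396 CPM in KO_OC, 743 to 765 CPM in flox_OC, 206 to 210 CPM in KO_BMM and 234 to 243 CPM in flox_BMM. Macrophage markers summed to 4979 to 5035 CPM in KO_OC, 5121 to 5193 CPM in flox_OC, 9349 to 9448 CPM in KO_BMM and 10732 to 10914 CPM in flox_BMM. The summed markers of stromal cells and osteoblasts, led by Col1a1 and Col1a2, were 55.5 to 64.8 CPM in KO_OC, 182 to 183 CPM in flox_OC, 67.8 to 76.8 CPM in KO_BMM and 215 to 234 CPM in flox_BMM. Neutrophil markers, led by Mmp8, summed to 10.2 to 11.97 CPM in KO_OC, 33.9 to 35.5 CPM in flox_OC, 26.0 to 28.0 CPM in KO_BMM and 77.6 to 82.2 CPM in flox_BMM. The 8 T and NK cell markers summed to 40.4 to 44.8 CPM in KO_OC, 78.2 to 87.3 CPM in flox_OC, 57.0 to 61.8 CPM in KO_BMM and 97.3 to 99.7 CPM in flox_BMM. Nearly all of this was Il7r, the interleukin-7 receptor, which averaged 41.1 CPM in KO_OC, 81.1 CPM in flox_OC, 56.0 CPM in KO_BMM and 94.2 CPM in flox_BMM, whereas Nkg7, Gzmb and Ncr1 were at 0 in every library and Cd3e, Cd3g and Cd8a had 0 to 3 counts in any group. Dendritic markers summed to 4.41 to 12.3 CPM and B cell markers to 0.396 to 1.65 CPM.

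The 49 genes together took 0.592 to 0.598% of all counts in KO_OC, 0.607 to 0.618% in flox_OC, 0.459 to 0.466% in KO_BMM and 0.430 to 0.439% in flox_BMM. Both RANKL groups thus lay above both M-CSF groups, and the KO libraries lay below flox with RANKL and above flox without it. Per kilobase of exon, the median level of the 7 constitutive β genes was 111 CPM per kb in KO_OC, 114 in flox_OC, 95.4 in KO_BMM and 92.5 in flox_BMM. The 3 immunoproteasome β genes had medians of 37.5 CPM per kb in KO_OC, 41.5 in flox_OC, 41.9 in KO_BMM and 42.1 in flox_BMM, with Psmb9 the lowest of the 3 in each group. Psmd8, a subunit of the 19S lid, had the highest level per kilobase of all members in every group, from 234 CPM per kb in KO_OC and 228 in flox_OC to 188 in KO_BMM and 161 in flox_BMM. Psma8, an α subunit known from testis, stayed at 1.36 to 1.79 CPM per kb. The exon lengths count all annotated exons of a gene, so levels per kilobase depend on them when genes are compared. Psmb11, the β subunit of thymic epithelium, had 1 count in all of KO_OC, 0 in flox_OC, 1 in KO_BMM and 0 in flox_BMM and was not tested.

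RANKL in flox cells went with higher RNA levels of nearly all constitutive proteasome genes and lower RNA levels of most of the interferon-inducible ones. Of the 48 members tested, 41 rose and 5 fell (edgeR's quasi-likelihood test, adjusted p under 0.05), that is 85.4% and 10.4%, where 37.0% of all 13030 genes tested rose and 37.8% fell. The median log2 fold change of the 48 was 0.34, against 0.00 over all genes tested. The rises took in 7 of 7 constitutive β genes, 7 of 8 α genes, all 6 ATPases, all 11 non-ATPase subunits of the 19S particle, all 4 chaperones of core assembly and all 3 chaperones of 19S base assembly. The 3 libraries of each group did not overlap for 41 members higher and 5 lower, against 37.3% and 37.9% of all genes tested. Among Psmb8, Psmb9, Psmb10, Psme1 and Psme2, 1 rose and 3 fell, with a median of -0.31, while 40 of the other 43 tested rose and 2 fell. The macrophage and osteoclast marker sums given above differ between the same groups, and their part in these results was not tested. In bulk RNA, fewer cells of a type and less RNA per cell cannot be told apart.

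Psmd10 (gankyrin), a chaperone that holds ATPases while the 19S base is built, had the largest rise. It stood at 55.3, 54.7 and 58.7 CPM in flox_OC, against 24.8, 25.4 and 23.9 CPM in flox_BMM. Every flox_OC library lay above every flox_BMM library, and the log2 fold change was 1.19 ± 0.05 (SE; 2.27-fold; adjusted p = 1.46e-26). Psmb7, the trypsin-like β subunit, stood at 223, 216 and 240 CPM in flox_OC, against 112, 112 and 112 CPM in flox_BMM. This was a 2.02-fold rise (log2 1.01 ± 0.03, adjusted p = 2.16e-30), with no overlap of libraries. Psme3, which forms the nuclear PA28γ cap, had 324, 317 and 321 CPM in flox_OC, against 189, 174 and 163 CPM in flox_BMM. It rose 1.83-fold (log2 0.87 ± 0.03, adjusted p = 7.32e-26). The chaperones of α ring assembly rose by log2 0.42 (Psmg4), 0.64 (Psmg1), 0.67 (Psmg2) and 0.85 (Psmg3), a median of 0.65. The 19S ATPases rose by 0.19 (Psmc1) to 0.51 (Psmc4), and the 19S non-ATPase subunits by 0.17 (Psmd1) to 0.56 (Psmd7, a lid subunit).

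The other constitutive sites rose less than Psmb7. Psmb5 stood at 43.8, 45.4 and 44.6 CPM in flox_OC, against 31.9, 31.2 and 26.2 CPM in flox_BMM. Its log2 fold change was 0.58 ± 0.06 (adjusted p = 1.27e-12). Psmb6 had 219, 206 and 217 CPM in flox_OC, against 191, 184 and 174 CPM in flox_BMM, a log2 fold change of 0.23 ± 0.03 (adjusted p = 1.4e-08). Both genes were higher in every flox_OC library. Psmb1 had the smallest rise among the called β genes, 0.08 ± 0.03 (adjusted p = 0.0158). Of the 50-base stretches of Psmb5, 54.1% also occur in other annotated genes, among them the pseudogene Psmb5-ps, so its level is uncertain.

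Psmb9 had the largest fall. It stood at 29.7, 29.6 and 27.5 CPM in flox_OC, against 43.4, 45.4 and 49.3 CPM in flox_BMM. All flox_OC libraries were lower, by 1.59-fold (log2 -0.67 ± 0.05, adjusted p = 3e-16). Psmb10 had 56.3, 54.7 and 49.4 CPM in flox_OC, against 66.8, 67.7 and 65.0 CPM in flox_BMM. It fell by 0.31 ± 0.04 on the log2 scale (adjusted p = 2.22e-08). Psmb8 stood at 115, 112 and 113 CPM in flox_OC, against 115, 119 and 111 CPM in flox_BMM. These ranges overlapped, with a log2 fold change of -0.02 ± 0.03 (adjusted p = 0.569) that turned to 0.15 (adjusted p = 9.698e-05) when libraries were scaled by their totals alone.

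The interferon-inducible PA28 pair moved in opposite directions. Psme1 had 116, 111 and 115 CPM in flox_OC, against 140, 139 and 146 CPM in flox_BMM. It fell by 0.31 ± 0.03 (adjusted p = 1.6e-11). Psme2 had 56.8, 56.1 and 57.9 CPM in flox_OC, against 44.6, 46.0 and 44.9 CPM in flox_BMM. It rose by 0.33 ± 0.04 (adjusted p = 1.9e-09), again with no overlap. Psme4, the PA200 cap, had 116, 127 and 121 CPM in flox_OC, against 155, 150 and 154 CPM in flox_BMM. It fell by 0.34 ± 0.03 (adjusted p = 2.33e-12). Psme2 shares 28.3% of its 50-base stretches with other genes, chiefly Psme2b, which shares 69.3% of its own and fell by 0.61 ± 0.14 at 3.66 CPM in flox_OC, against 5.59 CPM in flox_BMM. Reads of these copies may have been lost or moved between them. Without TMM factors, the median log2 fold change of all genes tested moved to 0.16 in flox and 0.14 in KO cells, and that of the members to 0.51 in flox and 0.42 in KO cells.

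**Figure D1:**
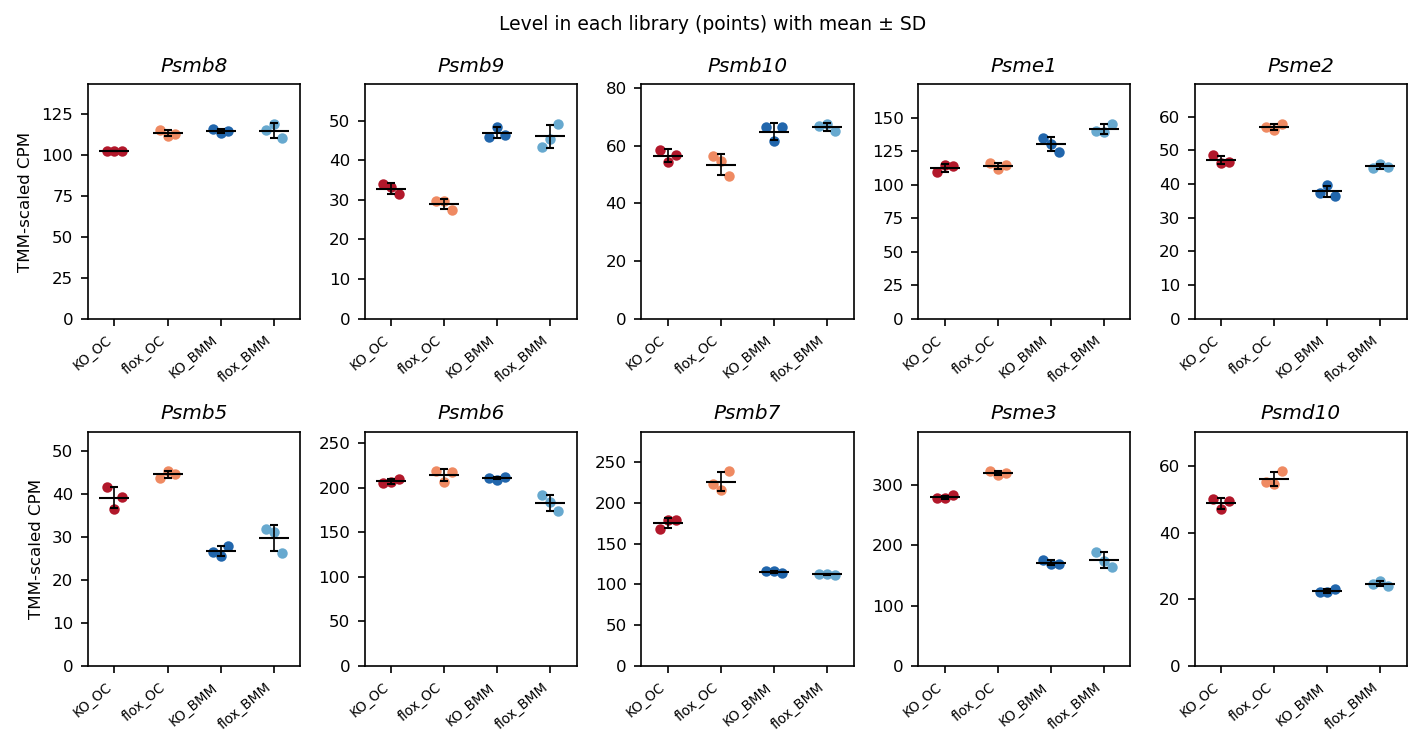
Level of 10 members in each library, in TMM-scaled CPM on a linear axis from 0, with group means and SD as black bars (n = 3 each). Psmb9 and Psmb10 lie lower in both OC groups than in both BMM groups, whereas Psmb5, Psmb7, Psme2, Psme3 and Psmd10 lie higher, and Psmb7 is lower in KO_OC than in flox_OC.

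In KO cells RANKL went with the same main division. Of the 48 members, 39 rose and 6 fell (81.2% and 12.5%), where 35.5% of all genes tested rose and 35.0% fell, and the median log2 fold change was 0.29, against 0.00 over all genes. Libraries did not overlap for 40 members higher and 6 lower, against 36.9% and 36.5% of all genes tested. Psmb8, Psmb9, Psmb10 and Psme1 fell and Psme2 rose, with a median of -0.20 over these 5. Of the other 43 tested, 38 rose and 2 fell. The rises took in all 8 α genes, 5 of 7 constitutive β genes, all 17 ATPase and non-ATPase genes of the 19S particle, all 4 core chaperones and 2 of 3 base chaperones. No library of these groups is shared with the flox comparison, but both rest on the same fit over all 12 libraries and its estimate of the spread.

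Psmd10 again led, with 50.2, 47.1 and 49.6 CPM in KO_OC, against 22.2, 22.1 and 23.1 CPM in KO_BMM. It rose 2.18-fold (log2 1.12 ± 0.05, adjusted p = 5.73e-25), with no overlap. Psme3 stood at 280, 278 and 283 CPM in KO_OC, against 177, 169 and 169 CPM in KO_BMM. Its log2 fold change was 0.71 ± 0.03 (adjusted p = 1.67e-22). Psmb7 had 169, 179 and 179 CPM in KO_OC, against 117, 116 and 114 CPM in KO_BMM. It rose by 0.60 ± 0.03 (adjusted p = 4.87e-21), again with every OC library above every BMM library. Psmb5 had 41.6, 36.6 and 39.3 CPM in KO_OC, against 26.6, 25.6 and 27.9 CPM in KO_BMM, a log2 fold change of 0.55 ± 0.06 (adjusted p = 1.77e-11). Psmb6 overlapped, with 205, 207 and 210 CPM in KO_OC, against 211, 209 and 212 CPM in KO_BMM (-0.02 ± 0.03, adjusted p = 0.492, and 0.11 with an adjusted p of 0.00108 when scaled by library totals alone).

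Psmb9 stood at 34.0, 33.2 and 31.4 CPM in KO_OC, against 45.8, 48.5 and 46.5 CPM in KO_BMM. It fell by 0.52 ± 0.05 (adjusted p = 7.64e-13). Psmb10 had 58.7, 54.4 and 56.7 CPM in KO_OC, against 66.6, 61.7 and 66.6 CPM in KO_BMM, and fell by 0.20 ± 0.04 (adjusted p = 0.00011). Both were lower in every KO_OC library. Psmb8 had 103, 103 and 102 CPM in KO_OC, against 116, 114 and 115 CPM in KO_BMM, and fell by 0.16 ± 0.03 (adjusted p = 3.98e-05). Psme1 had 109, 114 and 114 CPM in KO_OC, against 135, 130 and 125 CPM in KO_BMM, and fell by 0.21 ± 0.03 (adjusted p = 4.76e-07). Psme2 had 48.6, 46.2 and 46.6 CPM in KO_OC, against 37.4, 39.6 and 36.4 CPM in KO_BMM, and rose by 0.32 ± 0.05 (adjusted p = 3.01e-08). Thus RNA of Psme2 was higher and RNA of Psme1 lower with RANKL in both genotypes. Psme4 fell by 0.12 ± 0.03 (adjusted p = 0.00112), and scaled by library totals alone its value was 0.01 (adjusted p = 0.769). That scaling left 3 members lower in place of 6 and 42 higher in place of 39. Besides Psme4, 2 further falls were then no longer called. The median over all genes was then 0.14, beside TMM-scaled falls of 0.16 for Psmb8, 0.20 for Psmb10 and 0.21 for Psme1. The size of these falls in KO cells thus depends on the scaling.

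**Figure D2:**
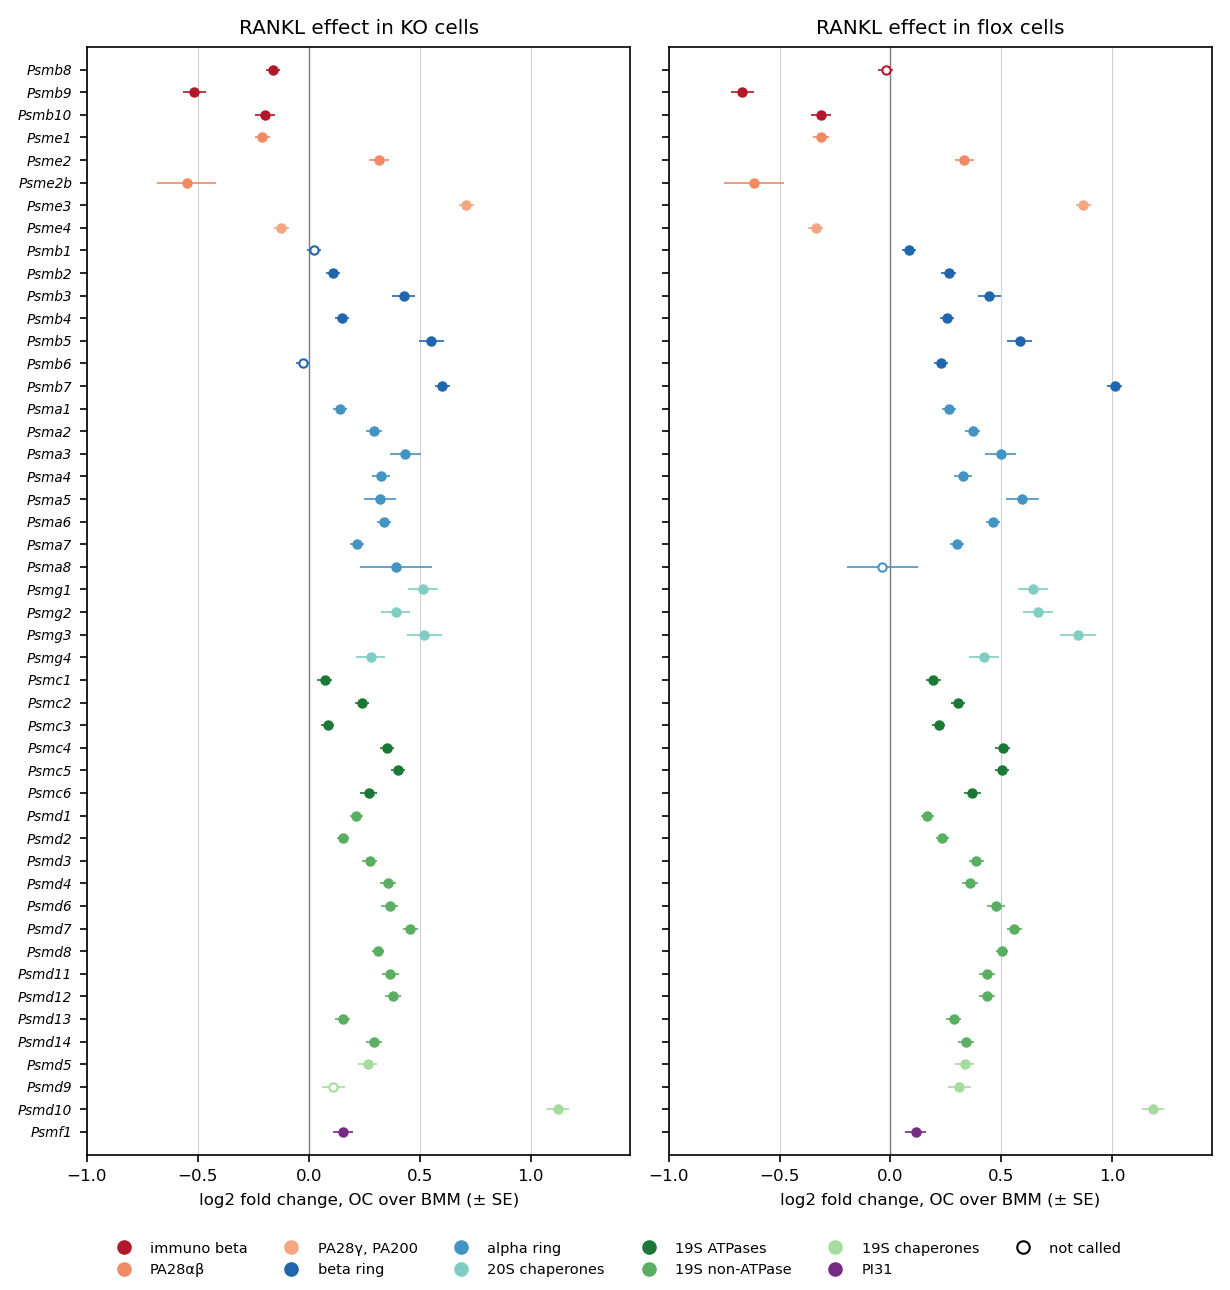
Log2 fold change of OC over BMM with its SE for the 48 members tested, in KO cells (left) and flox cells (right), with color for the role and open circles for members not called. Constitutive β, α, 19S and chaperone genes lie almost all to the right of 0, while Psmb9, Psmb10, Psme1, Psme2b and Psme4 lie to the left. Under scaling by library totals alone Psme4 in KO cells does not. With that scaling 3 members were called lower in KO cells, in place of 6.

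**Figure D3:**
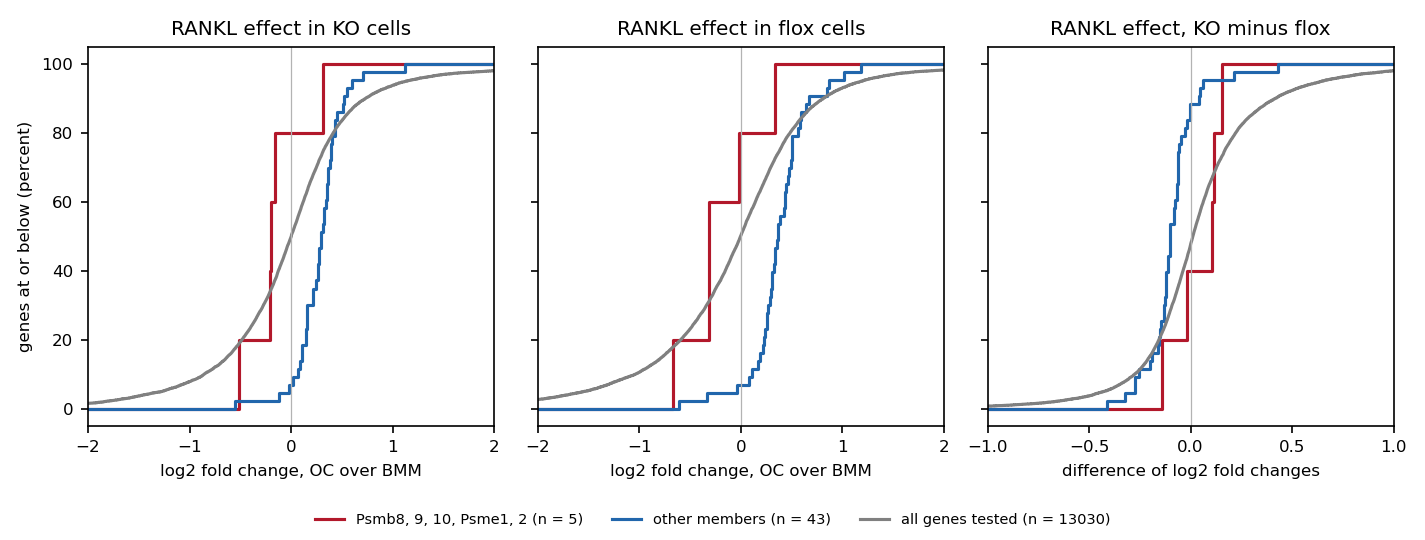
Percent of genes at or below each log2 fold change for Psmb8, Psmb9, Psmb10, Psme1 and Psme2 (5 genes), the other members tested (43 genes) and all 13030 genes tested, for RANKL in KO cells (left), in flox cells (middle) and the difference of the 2 effects, KO minus flox (right). The curve of the other members lies to the right of all genes in the first and second panels (medians 0.29 and 0.37) and to the left of it in the third (median -0.10).

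Ratios within a library, which do not depend on scaling between libraries, describe the balance of immunoproteasome and constitutive subunits. They were taken from counts per kilobase of exon. The length takes in all annotated exons, 2736 bases for Psmb8 and 871 for Psmb5, so the size of each ratio depends on it. Fold differences of a ratio between groups do not. In CPM, Psmb8 averaged 103 and Psmb5 averaged 39.2 in KO_OC. Psmb8 shares 6.80% of its exon bases with Gm20496 and Psmb9 5.79% with Tap1, and without strand reads from these stretches cannot be told apart. Psmb8/Psmb5 was 0.787, 0.894 and 0.828 in KO_OC, 0.840, 0.783 and 0.808 in flox_OC, 1.39, 1.42 and 1.31 in KO_BMM, and 1.15, 1.22 and 1.34 in flox_BMM. It was lower in every OC library than in any BMM library. Its size is uncertain, since 54.1% of the 50-base stretches of Psmb5 occur in other genes and 12.5% of its exon bases are shared with Mir686. With RANKL the mean was 1.64-fold lower in KO cells and 1.53-fold lower in flox cells, a description with no test. Psmb9/Psmb6 was 0.0849, 0.0821 and 0.0766 in KO_OC, 0.0694, 0.0736 and 0.0648 in flox_OC, 0.111, 0.119 and 0.112 in KO_BMM, and 0.116, 0.126 and 0.145 in flox_BMM. Psmb10/Psmb7 was 0.333, 0.290 and 0.302 in KO_OC, 0.242, 0.242 and 0.197 in flox_OC, 0.544, 0.509 and 0.556 in KO_BMM, and 0.568, 0.577 and 0.554 in flox_BMM. Each of these 3 ratios was lower in all OC than in all BMM libraries of the same genotype. With RANKL, Psmb10/Psmb7 was 1.74-fold lower in KO and 2.51-fold lower in flox cells. Psmb9/Psmb6 was 1.404-fold lower in KO and 1.86-fold lower in flox cells. In flox cells the rises of Psmb7 (log2 1.01) and Psmb5 (0.58) exceeded in size the changes of Psmb10 (-0.31) and Psmb8 (-0.02). The fall of Psmb9 (-0.67) exceeded the change of Psmb6 (0.23). In KO cells the same genes of each pair changed more. In the OC groups, Psmb9/Psmb6 averaged 0.0812 ± 0.0042 in KO_OC and 0.0692 ± 0.0044 in flox_OC (SD, n = 3 each), and Psmb10/Psmb7 averaged 0.309 ± 0.022 in KO_OC and 0.227 ± 0.026 in flox_OC. Neither ratio overlapped between KO_OC and flox_OC, while both overlapped between KO_BMM and flox_BMM. Between KO_OC and flox_OC, Psmb7 was called lower (log2 -0.365) and Psmb9 higher (0.18), while Psmb10 and Psmb6 were not called. For the activators, Psme1/Psme3 averaged 0.535 in KO_OC, 0.474 in flox_OC, 1.01 in KO_BMM and 1.08 in flox_BMM, and Psme2/Psme3 averaged 0.281 in KO_OC, 0.297 in flox_OC, 0.369 in KO_BMM and 0.432 in flox_BMM.

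**Figure D4:**
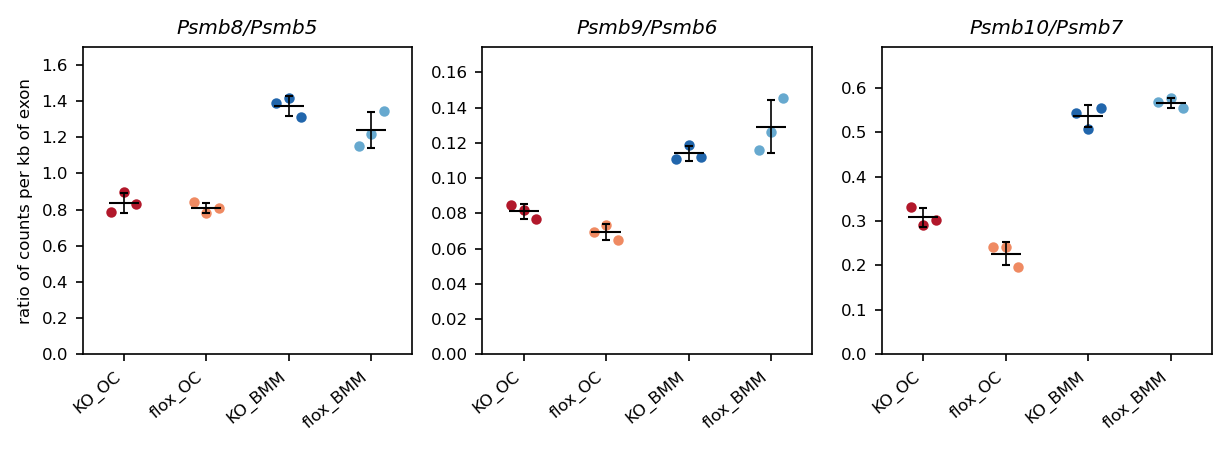
Ratio of counts per kilobase of exon of each immunoproteasome β gene to the subunit it replaces, per library, with group means and SD as black bars (n = 3 each) on linear axes from 0. All 3 ratios are lower in KO_OC and flox_OC than in KO_BMM and flox_BMM, and Psmb10/Psmb7 averages 0.309 in KO_OC and 0.227 in flox_OC.

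Because the proteasome genes moved together with RANKL, their promoters were searched for letters that known regulators bind. The windows reach from 250 bases before to 50 bases after the RefSeq start on GRCm38.p6, and 41 of the 49 genes matched the RefSeq table. Psmb7 was not among those matched. Those of 2 constitutive sites and of 1 immunoproteasome site are shown 5′ to 3′ up to the start, with matches in capitals. They lie on chromosome 14 at 54617996 to 54618245 (minus strand, Psmb5), on chromosome 11 at 70525107 to 70525356 (plus strand, Psmb6) and on chromosome 8 at 105938393 to 105938642 (minus strand, Psmb10).
Psmb5 promoter: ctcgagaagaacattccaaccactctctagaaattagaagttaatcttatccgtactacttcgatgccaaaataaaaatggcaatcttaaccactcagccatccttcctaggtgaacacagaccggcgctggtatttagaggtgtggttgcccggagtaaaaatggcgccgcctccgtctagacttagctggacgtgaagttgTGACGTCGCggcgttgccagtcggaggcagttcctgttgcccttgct
Psmb6 promoter: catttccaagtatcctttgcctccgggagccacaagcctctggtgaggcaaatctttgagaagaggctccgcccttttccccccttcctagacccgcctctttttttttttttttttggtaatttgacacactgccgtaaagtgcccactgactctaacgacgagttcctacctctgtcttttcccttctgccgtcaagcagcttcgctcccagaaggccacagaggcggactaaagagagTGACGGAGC
Psmb10 promoter: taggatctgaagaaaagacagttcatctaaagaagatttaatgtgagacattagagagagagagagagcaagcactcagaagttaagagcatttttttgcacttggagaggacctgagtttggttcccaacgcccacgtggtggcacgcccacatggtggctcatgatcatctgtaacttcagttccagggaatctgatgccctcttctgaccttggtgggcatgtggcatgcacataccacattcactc
The capitals mark TGACNNNGC, the core of the antioxidant response element, at position -47 from the start in Psmb5 and -9 in Psmb6. The Psmb10 window holds none of the motifs searched. The windows of Psmb8 and Psmb9, not shown, do hold matches, TTCNNNGAA at -97 and CCAAT at -8. On either strand TGACNNNGC was found in 6 of the 41 members (14.6%), against 13.99% of the 27025 genes in the table. These 6 were Psmb5, Psmb6, Psmc6, Psmd9, Psmd12 and Psme4. Psme4 was called lower with RANKL in both genotypes, in KO cells not under scaling by library totals alone. Psmb5, Psmc6 and Psmd12 rose in both, while Psmb6 and Psmd9 rose in flox cells and were not called in KO cells. The core of the interferon-stimulated response element was found in 5 of 41 (12.2%), against 3.99% of all, and among Psmb8, Psmb9, Psmb10, Psme1 and Psme2 only in Psme1. TTCNNNGAA, the gamma-activated sequence, was found in 3 of 41 (7.32%), against 9.55% of all, and 1 of them was Psmb8. CCAAT was found in 14 of 41 (34.1%), against 41.1% of all, with 3 matches each in Psma3, Psmd4, Psmd10 and Psmd14. A match is a description of the letters and not a binding site.

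Whether the RANKL response itself differed by genotype was tested as the difference of the log2 fold changes, KO minus flox. For 33 of the 48 members no difference was called. In 14 (29.2%) the RANKL effect was lower in KO cells and in 1 (2.08%) it was higher, where 9.53% of all genes tested were called lower and 12.3% higher. The median difference was -0.09 over the members, against 0.01 over all genes. The 14 were Psmb7, Psmb6 and Psmb2 of the constitutive β genes, Psmb8, Psma1 and the core chaperones Psmg3 and Psmg2. They also took in the ATPases Psmc1, Psmc3 and Psmc4, the 19S subunits Psmd8 and Psmd13, the base chaperone Psmd9 and Psme3. Psmb6, Psmb2, Psma1, Psmg2, Psmc1, Psmc3, Psmd8 and Psmd13 were called higher in KO_BMM than in flox_BMM. Between KO_OC and flox_OC these genes were not called. Psmb7, Psmb8, Psmg3, Psmc4, Psmd9 and Psme3 were called lower in KO_OC and not called between the BMM groups. For Psmb8 the lower effect was a larger fall, -0.16 in KO against -0.02 in flox cells.

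Among the members called, the largest difference was that of Psmb7, whose RANKL effect was 0.60 in KO and 1.01 in flox cells (difference -0.41 ± 0.05, adjusted p = 3.66e-09). Psmg3, which joins Psmg4 under the growing α ring, had 15.3, 13.2 and 15.7 CPM in KO_OC, 18.2, 17.2 and 16.4 CPM in flox_OC, 10.5, 9.96 and 10.4 CPM in KO_BMM, and 9.64, 9.99 and 9.20 CPM in flox_BMM. Its libraries were lower in KO_OC than in flox_OC and overlapped between KO_BMM and flox_BMM. The difference was -0.32 ± 0.11 (adjusted p = 0.0335). Psmg2, the partner of Psmg1 in α ring assembly, had 24.7, 27.1 and 26.8 CPM in KO_OC, 28.8, 24.4 and 30.3 CPM in flox_OC, 19.5, 20.3 and 20.1 CPM in KO_BMM, and 17.7, 18.0 and 16.9 CPM in flox_BMM. Here the groups overlapped with RANKL and KO was higher without it (difference -0.27 ± 0.09, adjusted p = 0.0291). Psmb6 differed by -0.25 ± 0.05 (adjusted p = 2.02e-05). Psme4 was the exception, with a smaller fall in KO cells (difference 0.21 ± 0.05, adjusted p = 0.000677). For Psmb9, Psmb10 and Psme1 the differences were 0.15, 0.12 and 0.10 and were not called (adjusted p = 0.13, 0.197 and 0.125), and for Psmd10 the value was -0.06 ± 0.07 (adjusted p = 0.601). DESeq2 called 7 members lower and a test against a 1.2-fold change called 1, Psmb7. The 14 became 8 and 6 without KO_BMM libraries 1 and 3, 7 without flox_OC library 1 or 3, and 7 and 9 without KO_OC libraries 1 and 2.

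With RANKL, KO_OC differed from flox_OC in few members and by small amounts. Of 48, 12 fell (25.0%) and 3 rose (6.25%), where 19.9% of all genes tested fell and 21.4% rose, and 33 were not called. The share that fell is thus near that over all genes. The median log2 fold change was -0.03, against 0.01 over all genes. Without overlap of libraries, 18 of the 48 members were lower and 4 higher, against 24.7% and 26.6% of all genes tested. Psmb7, with the libraries given above, was 1.29-fold lower in KO_OC (log2 -0.36 ± 0.03, adjusted p = 1.91e-13). Psme2 was lower by 0.27 ± 0.04 (adjusted p = 4.64e-07), and all KO_OC libraries lay below all flox_OC libraries. Psmg3 was lower by 0.23 ± 0.07 (adjusted p = 0.00714). Smaller falls were those of Psma6 (-0.22), Psmd10 (-0.20), Psme3 (-0.19), Psmb5 (-0.19), Psmb8 (-0.14), Psmd9 (-0.14), Psmc4 (-0.12), Psma2 (-0.10) and Psmd11 (-0.09). The rises were those of Psme4 (0.20 ± 0.03, adjusted p = 3.51e-06), Psmb9 (0.18 ± 0.05, adjusted p = 0.00543) and Psmf1 (0.14 ± 0.04, adjusted p = 0.00866). Psmf1, the regulator PI31, which binds the core, had 44.7, 44.9 and 45.1 CPM in KO_OC, against 41.2, 38.9 and 41.8 CPM in flox_OC. Its groups did not overlap. The immunoproteasome β genes thus split, with Psmb8 lower, Psmb9 higher and Psmb10 not called (0.08 ± 0.04, adjusted p = 0.153). Summed stromal markers were 55.5 to 64.8 CPM in KO_OC, against 182 to 183 CPM in flox_OC, summed osteoclast markers were 379 to 396 CPM in KO_OC, against 743 to 765 CPM in flox_OC, Il7r was lower in KO_OC by 0.98 on the log2 scale, and the part of these in the results was not tested. Only Psmb7 passed the test against a 1.2-fold change. Leaving out flox_OC library 1 or KO_OC library 2 left 8 members lower.

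In M-CSF alone, KO_BMM differed from flox_BMM mostly by small rises. Of 48, 14 rose (29.2%) and 4 fell (8.33%), where 19.3% of all genes tested rose and 20.6% fell, with a median of 0.05, against 0.00 over all genes. The libraries were apart for 18 members higher and 5 lower, against 23.2% and 23.3% of all genes tested. The rises took in 4 of 6 ATPases (Psmc1, Psmc2, Psmc3 and Psmc6), 4 of 11 non-ATPase subunits (Psmd2, Psmd3, Psmd8 and Psmd13), Psmb1, Psmb2, Psmb6, Psma1, Psmg2 and Psmg4. Psmd8 had 292, 288 and 290 CPM in KO_BMM, against 245, 251 and 246 CPM in flox_BMM. This was the largest rise (log2 0.23 ± 0.03, adjusted p = 5.72e-09), with no overlap. Psmb6 rose by 0.20 ± 0.03 (adjusted p = 7.02e-07) and Psmg2 by 0.19 ± 0.07 (adjusted p = 0.036). The falls were those of Psme2 (-0.26 ± 0.05, adjusted p = 1e-05), Psmb5 (-0.16 ± 0.06, adjusted p = 0.0382), Psme1 (-0.12 ± 0.03, adjusted p = 0.00249) and Psma6 (-0.10 ± 0.03, adjusted p = 0.02). Both interferon-inducible PA28 genes were thus lower in every KO_BMM library, while Psmb8 (-0.01), Psmb9 (0.03) and Psmb10 (-0.04) were not called. Psmb5 overlapped between the groups.

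None of these changes passed the test against a 1.2-fold change, and DESeq2 called 9 members higher and 3 lower. Library totals alone as the scale gave 21 higher and 2 lower, leaving out flox_BMM library 2 gave 9 higher, and leaving out flox_BMM library 1 or KO_BMM library 2 gave 2 lower. Stromal markers summed to 67.8 to 76.8 CPM in KO_BMM, against 215 to 234 CPM in flox_BMM, neutrophil markers to 26.0 to 28.0 CPM in KO_BMM, against 77.6 to 82.2 CPM in flox_BMM, Il7r was lower in KO_BMM by 0.75 on the log2 scale, and the part of these in the results was not tested.

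**Figure D5:**
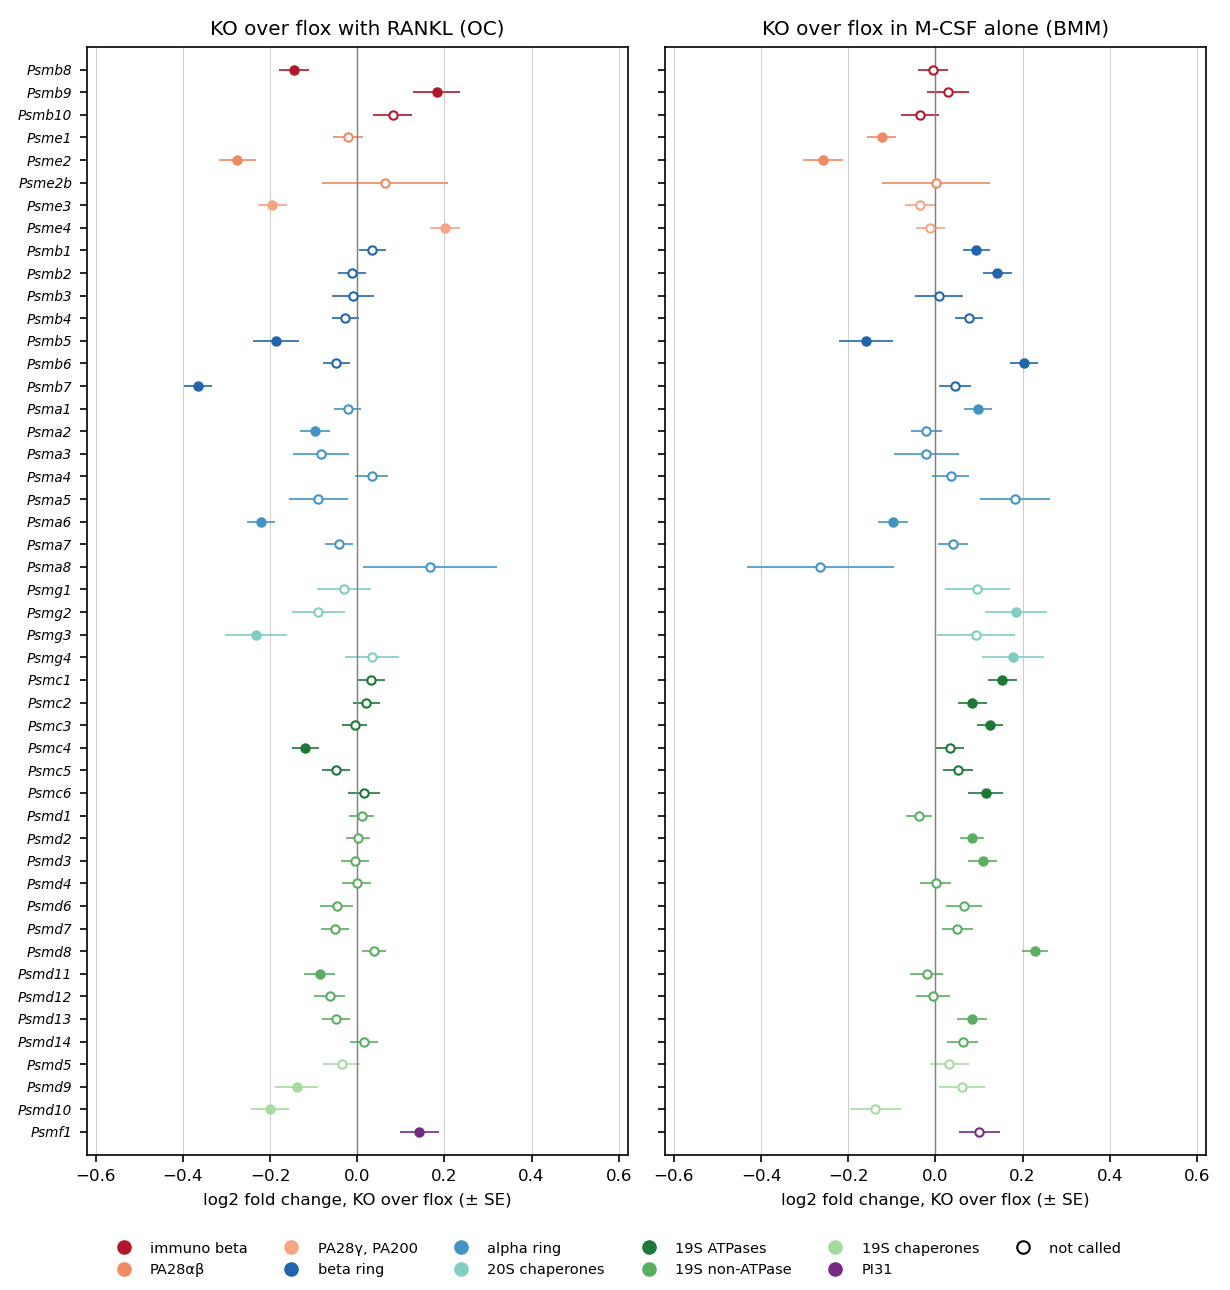
Log2 fold change of KO over flox with its SE for the 48 members tested, with RANKL (left) and in M-CSF alone (right), with color for the role and open circles for members not called. Psmb7 at -0.36 is the lowest point with RANKL, Psmd8 at 0.23 the highest in M-CSF alone, and Psme2 lies at -0.27 and -0.26 in the 2 panels.

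Genes whose proteins work with the proteasome but that carry other symbols moved in both directions. Of 12 such partners, 8 rose and 4 fell with RANKL in both KO and flox cells, where 35.5% of all genes tested rose and 35.0% fell in KO cells and 37.0% rose and 37.8% fell in flox cells. The count lower is thus near the share over all genes. Rad23b, a shuttle that carries ubiquitin chains to the 19S particle, averaged 385 ± 4.8 CPM in KO_OC, 452 ± 2.4 CPM in flox_OC, 231 ± 5.0 CPM in KO_BMM and 233 ± 14 CPM in flox_BMM (SD, n = 3 each). It rose with RANKL by 0.74 in KO and 0.96 in flox cells, a difference of -0.22 (adjusted p = 7.5e-05). Usp14 and Uchl5, the deubiquitinases of the 19S particle, rose by 0.71 and 0.42 in KO cells and by 0.80 and 0.59 in flox cells. The falls were those of Pomp, the core maturation factor (-0.22 in KO and -0.26 in flox cells), Sem1, the smallest lid subunit, Ubqln2, a ubiquitin shuttle, and Akirin2, which carries proteasomes into the nucleus. In KO_OC against flox_OC, 2 of the 12 were higher and 3 lower, where 21.4% and 19.9% of all genes were. In KO_BMM against flox_BMM 2 were higher and 2 lower, where 19.3% and 20.6% of all genes were.

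Of 10 known regulators of proteasome genes, 7 fell with RANKL in both KO and flox cells, where 35.0% of all genes tested fell in KO and 37.8% in flox cells. Nfe2l1 was among the exceptions, with 309 ± 3.0 CPM in KO_OC, 306 ± 4.0 CPM in flox_OC, 258 ± 2.3 CPM in KO_BMM and 277 ± 6.1 CPM in flox_BMM. It rose by 0.26 in KO (adjusted p = 8.2e-12) and by 0.14 in flox cells (adjusted p = 1.4e-05), and the difference of 0.12 was called (adjusted p = 0.018). Nfe2l1 protein is made active after translation, which RNA does not show. Its relative Nfe2l2, the cleaving protease Ddi2 and the dimer partner Mafg all fell. Mafg showed the largest fall of the list, by 0.65 in KO and 0.75 in flox cells.

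Genes of the interferon response and of MHC class I peptide loading, which work with the immunoproteasome, were 7 higher and 9 lower of 18 with RANKL in KO cells and 4 higher and 10 lower in flox cells. Of all genes tested, 35.5% were higher and 35.0% lower in KO cells, and 37.0% higher and 37.8% lower in flox cells, so that the count higher in KO cells is near the share over all genes. Irf8, a transcription factor of macrophages and the interferon response, averaged 47.0 ± 1.1 CPM in KO_OC, 31.1 ± 0.65 CPM in flox_OC, 211 ± 1.8 CPM in KO_BMM and 199 ± 2.2 CPM in flox_BMM. It fell with RANKL by 2.17 in KO and by 2.68 in flox cells. Nlrc5, the transactivator of MHC class I genes, averaged 30.9 ± 1.2 CPM in KO_OC, 22.0 ± 1.8 CPM in flox_OC, 36.4 ± 1.6 CPM in KO_BMM and 35.1 ± 0.77 CPM in flox_BMM. In KO cells its fall was 0.24 and in flox cells 0.67 (difference 0.44, adjusted p = 2.6e-05). The RANKL effect was called higher in KO cells for 9 of the 18 and lower for 1, where 12.3% of all genes were called higher and 9.53% lower. Psmb8 was the only one of the 5 interferon-inducible proteasome genes for which a difference was called, and it was lower. In KO_BMM, 4 of the 18 were higher and 8 lower than in flox_BMM, where 19.3% and 20.6% of all genes were. Irf1 (-0.42) and Ifngr1 (-0.32) were among the lower ones. The class I heavy chains H2-D1 and H2-K1, whose levels are uncertain because of their near-identical relatives, moved in opposite directions with RANKL. H2-D1 averaged 1707 ± 27 CPM in KO_OC, 1476 ± 13 CPM in flox_OC, 1889 ± 28 CPM in KO_BMM and 1644 ± 67 CPM in flox_BMM. It was lower with RANKL by 0.15 in KO and 0.16 in flox cells, about the size of the shift over all genes that scaling by library totals alone gives, and higher in KO_OC than in flox_OC by 0.21 (adjusted p = 5.26e-09). H2-K1 rose with RANKL by 0.34 in KO and 0.24 in flox cells. Tapbp, the peptide-loading factor tapasin, also rose, while Tap2, a subunit of the peptide transporter, fell.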

How the data were processed

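RNA was measured in 12 libraries of oligo-dT selected RNA, and groups and replicate numbers were taken from the sample titles. The authors deposited whole-number counts per gene that had not been normalized. STAR 2.0.4b and GRCm38 are named as aligner and build, per the submitters' processing notes, and the counting was done with featureCounts 1.4.5-p1 over exons of Ensembl release 76 under strand setting 0, per the file headers. Strand was thus ignored, and no option for reads with several alignments is recorded, so 11 members with over 10% of their 50-base stretches in other genes, among them Psmb5, Psma5, Psmd9, Psme2 and Psme2b (Psmb8 has 11.9%), have uncertain levels. Exon lengths are those of the file headers' annotation, as deposited. Symbols came from GENCODE M21, which matched 40254 of 41388 identifiers, and the other 1134 (0.136% of counts) stayed in the tests unnamed. Promoter sequences came from RefSeq (GRCm38.p6).

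Genes were tested with edgeR 4.0.16 (R 4.3.3, limma 3.58.1): TMM factors, default low-count filter, quasi-likelihood F test with robust estimation and 4 group means over all 12 libraries, with Benjamini-Hochberg adjustment over 13030 genes and calls at an adjusted p under 0.05. A standard error is the size of the log2 fold change divided by the root of its F value. CPM are TMM-scaled. A count of 0 allows up to 3 counts, or 0.139 to 0.162 CPM per library, for counting error only. Replicates differed by more than counting noise, with chi-square over its degrees of freedom at 1.23 to 5.05, so none was a repeat deposit.

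The members and lists were chosen with earlier results of these data known. Members given per library were Psmb8, Psmb9, Psmb10, Psme1, Psme2, Psmb5, Psmb6, Psmb7 and, per comparison, up to 3 called members with the largest rise and 3 with the largest fall at 10 CPM or more in the higher group. List genes were the 3 called genes with the largest change at that level, and Nfe2l1. Further list genes (Pomp, Sem1, Tapbp, Tap2, H2-K1, Nfe2l2, Ddi2) were named after their values were seen, and the values of 2 list genes that the rule takes in are not reported here. Of the symbols listed, 2 were not found. Alternatives were DESeq2 1.42.0, its size factors, library totals alone, no filter, a filter at 5 CPM in 3 libraries, a replicate block, a fit on only the groups compared, edgeR's test against a 1.2-fold change and each library left out in turn.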

Additional observations from a re-analysis of the deposited data

Results flagged for a closer look

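For 15 members the RANKL effects of the 2 genotypes differed by the test of the difference itself (edgeR's quasi-likelihood test, adjusted p under 0.05), given here as log2 fold change in KO minus that in flox cells. The values were -0.41 for Psmb7, -0.32 for Psmg3, -0.27 for Psmg2, -0.25 for Psmb6, -0.20 for Psmd9, -0.19 for Psmd8, -0.16 for Psme3, -0.15 for Psmb2, -0.15 for Psmc4, -0.14 for Psmb8, -0.13 for Psmd13, -0.13 for Psmc3, -0.12 for Psmc1, -0.12 for Psma1 and 0.21 for Psme4. With 3 libraries a group, single libraries were not tested for standing apart.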

How the results depend on the processing

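In the test against a 1.2-fold change, members called higher and lower were 27 and 4 with RANKL in flox cells, 19 and 2 with RANKL in KO cells, 0 and 1 for the difference of RANKL effects, 0 and 1 in KO_OC against flox_OC, and 0 and 0 in KO_BMM against flox_BMM. With library totals alone, 3 members were lower with RANKL in KO cells and 2 in KO_BMM, and the sign turned for Psmb8 with RANKL in flox cells (0.15) and for Psme4 (0.0115) and Psmb6 (0.11) with RANKL in KO cells. That scaling also moved the calls of all genes with RANKL in flox cells to 6320 higher and 3737 lower, against 4822 and 4925 with TMM factors. With DESeq2, 7 members were lower for the difference of RANKL effects and 9 were higher in KO_BMM. Leaving out each library in turn gave 39 to 41 higher and 5 lower with RANKL in flox cells, 37 to 39 higher and 6 lower in KO cells, 1 higher and 6 to 20 lower for the difference, 2 to 3 higher and 8 to 12 lower in KO_OC, and 9 to 16 higher and 2 to 4 lower in KO_BMM. The cause of these changes was not tested, apart from the stricter null of the first test and the fewer libraries of the last.

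Same-numbered libraries did not deviate together (r -0.08 to 0.08 over 12 pairs, 2 libraries closest to their own number). Some libraries of unlike number reached r of 0.17 and -0.15. The check thus gave no sign of a pairing by number and cannot exclude one. With the replicate block, members higher and lower were 41 and 5 with RANKL in flox cells, 38 and 6 in KO cells, 1 and 12 for the difference, 3 and 11 in KO_OC, and 13 and 4 in KO_BMM. Of the members, Psmb11 had too few counts to test, and Psma8 and Psme2b, at a few CPM, carried the widest errors.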

Other observations

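Ubiquitin genes and genes of the unfolded protein and heat shock response, which act upstream of the proteasome or beside it, also moved with RANKL. Of 8 genes for ubiquitin and its activation, 6 rose in both KO and flox cells, where 35.5% of all genes tested rose in KO and 37.0% in flox cells. Ube2l6, a conjugating enzyme for the interferon-induced modifier ISG15, averaged 78.5 ± 1.3 CPM in KO_OC, 101 ± 1.1 CPM in flox_OC, 58.4 ± 3.0 CPM in KO_BMM and 63.0 ± 1.6 CPM in flox_BMM (SD, n = 3 each). Its rise was 0.43 in KO and 0.68 in flox cells, and it was lower in KO_OC than in flox_OC by 0.36 (edgeR, adjusted p = 1.5e-11).

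Of 12 genes of the unfolded protein and heat shock response, 8 rose in both genotypes, and 4 fell in KO and 3 in flox cells. Of all genes tested, 35.5% rose and 35.0% fell in KO cells, and 37.0% rose and 37.8% fell in flox cells. The counts lower are thus near or below the share over all genes. The cytosolic chaperones Hsph1 and Hsp90aa1 rose by 1.64 and 0.88 in KO cells and by 1.48 and 1.16 in flox cells. Hspa5, the chaperone of the endoplasmic reticulum, and Xbp1, a transcription factor of its stress response, fell by 0.42 and 0.59 in KO cells and by 0.70 and 0.78 in flox cells. Atf4, a transcription factor of the integrated stress response, averaged 138 ± 5.8 CPM in KO_OC, 174 ± 4.9 CPM in flox_OC, 88.6 ± 2.7 CPM in KO_BMM and 88.2 ± 2.1 CPM in flox_BMM, with a difference of the RANKL effects of -0.34 (edgeR, adjusted p = 6.7e-07). Hspa5 and Xbp1 were named after their values were seen for the RANKL comparisons. Hsp90aa1 has related copies in the genome, so its level is uncertain.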
